A study of Mus musculus with 4 samples.

Results

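The genes described here are 10 transcription factors of the ETS family, *Spi1*, *Spib*, *Spic*, *Ets1*, *Ets2*, *Etv6*, *Fli1*, *Elf1*, *Elk3* and *Erg*. They were chosen by name from the 55359 gene identifiers in the count table, and all 10 were found there. They were measured by bulk RNAseq of T8 cells, a leukemia line from 1 tumor of an *Irf4*-/- mouse on the C57BL/6 background. Viable cells were taken 24 h after transduction with a retrovirus that codes for GFP alone (EV-RV) or for GFP and IRF4 (IRF4-RV), with 2 libraries per group. Both groups are *Irf4*-/- by genotype and carry a virus with GFP, and they differ in the IRF4 insert. The series calls the libraries of a group biological replicates of the same line, with no more said of how they were separated, so p-values measure the spread between samples of 1 leukemia, which may be technical. Titles and tissue name T8 while the protocol text names T11, and the libraries were used as T8.

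ETS factors share a DNA-binding domain that recognizes sites with the core GGAA. Many of them act beside a second factor bound next to them. PU.1 (encoded by *Spi1*) and Spi-B (encoded by *Spib*) bring IRF4 or IRF8 to composite elements in which an ETS core lies next to the GAAA of an interferon response element, as in the enhancers of the immunoglobulin light chain loci. In mice, loss of both PU.1 and Spi-B from B-lineage cells leads to B-cell precursor leukemia. The comparison asks which of these factors differed in transcript level when IRF4 was introduced by retrovirus into leukemia cells from an *Irf4*-/- mouse.

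Total counts were 31686715 and 31230223 under EV-RV against 34771970 and 37817752 under IRF4-RV. A level of 3 counts, used as the limit of what these libraries can show, equals 0.0824 to 0.0952 CPM (counts scaled to library size after TMM factors) and allows for counting error alone. The replicates of a group were not within sampling noise of each other (chi-square divided by its degrees of freedom, 15.2 for EV-RV and 14.3 for IRF4-RV). *Irf4* itself gave 8070 and 7600 counts in the EV-RV libraries against 95578 and 90693 in the IRF4-RV libraries, and reads of the vector and of the endogenous locus are not separated. The EV-RV virus carries no IRF4, and the source of the *Irf4* counts in the EV-RV libraries was not tested. The part of the gene that the *Irf4*-/- allele lacks is not given in the sources used here. Of 10 B-lineage markers 9 were tested (*Cd79a*, *Cd79b*, *Pax5*, *Ebf1*, *Vpreb1*, *Igll1*, *Dntt*, *Blnk* and *Il7r*), with summed counts of the list of 110250 and 108536 under EV-RV against 81499 and 86398 under IRF4-RV. The members of this sum went different ways, since the surrogate light chain genes *Igll1* and *Vpreb1* had log2 fold changes of -1.30 and -1.49 (adjusted p = 5.95e-05 and 3.82e-05 by edgeR) and *Blnk* one of 1.04. The antigen receptor genes *Cd79a* and *Cd79b* were both at -0.01 (SE 0.0685 and 0.0681). *Dntt*, the lowest of the 9, had 86 and 90 counts under EV-RV against 34 and 31 under IRF4-RV. Its log2 fold change was -1.55 (SE 0.274, adjusted p = 0.00575 by edgeR). The recombinase gene *Rag1* had at most 1 count in a library. In bulk RNA, fewer cells of a type and less RNA per cell cannot be told apart.

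Of the 10 genes, 5 were higher with IRF4-RV (*Ets1*, *Fli1*, *Etv6*, *Elf1* and *Spib*) and 1 was lower (*Spi1*). *Ets2* and *Elk3* did not pass the test, and *Spic* and *Erg*, with at most 2 counts in a library, were too low to be tested. The largest difference was a 1.63-fold higher level of *Ets1*, and that of *Spib* was 1.17-fold. Tests used edgeR's quasi-likelihood test on counts with TMM factors and Benjamini-Hochberg adjustment over 14637 genes at an FDR of 0.1. Of all genes tested, 29.7% passed, 16.0% higher and 13.7% lower. The 8 tested genes had at least 426 counts in every library, so that none passed the filter on low counts through 1 group alone. Their median log2 fold change was 0.38, against 0.007 over all genes tested. The groups did not overlap in CPM for any of the 8, which was also the case for 61.3% of all genes tested. *Spi1*, *Ets1*, *Etv6*, *Fli1* and *Elf1* passed in each of 11 alternative settings, and *Spib* in 5. With DESeq2, where 25.0% of genes passed (13.4% higher and 11.6% lower), the count of 5 higher and 1 lower ETS genes was the same. With library size only, where 31.5% passed (11.9% higher and 19.6% lower), 4 were higher and 2 lower.

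The sequences before the start sites of *Spib*, *Etv6* and *Elf1* are shown because these genes were called higher and because *Spib* codes for an IRF4 partner. The call of *Spib* held in only 5 of 11 alternative settings. Each is the 250 bases before the start of a transcript in RefSeq (GRCm38.p6), read 5′ to 3′ on the gene's strand, with every GGAA core on either strand (GGAA or TTCC) in capitals. The windows searched reach 50 bases further, past the start, and lie on the minus strand at chr7:44532022-44532321 for *Spib* and on the plus strand at chr6:134035450-134035749 for *Etv6* and chr14:79480944-79481243 for *Elf1*. *Elf1* has a second window, at chr14:79515424-79515723, which is not printed.

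Spib: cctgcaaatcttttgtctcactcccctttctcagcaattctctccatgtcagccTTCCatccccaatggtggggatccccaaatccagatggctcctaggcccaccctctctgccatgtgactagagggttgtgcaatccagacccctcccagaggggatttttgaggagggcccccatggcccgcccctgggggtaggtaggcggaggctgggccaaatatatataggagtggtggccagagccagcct
Etv6: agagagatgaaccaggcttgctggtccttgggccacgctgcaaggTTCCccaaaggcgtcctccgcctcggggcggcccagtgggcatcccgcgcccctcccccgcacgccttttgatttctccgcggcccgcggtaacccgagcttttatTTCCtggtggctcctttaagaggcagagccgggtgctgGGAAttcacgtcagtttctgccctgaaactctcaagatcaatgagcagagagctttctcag
Elf1: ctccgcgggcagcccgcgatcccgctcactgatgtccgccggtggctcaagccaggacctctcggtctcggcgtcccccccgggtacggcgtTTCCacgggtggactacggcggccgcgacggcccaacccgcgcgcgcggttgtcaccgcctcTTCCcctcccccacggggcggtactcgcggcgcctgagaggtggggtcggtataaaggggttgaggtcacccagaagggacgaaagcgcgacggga

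The printed bases hold 1 core in *Spib*, 3 in *Etv6* and 2 in *Elf1*, against a median of 3 in the same stretch of all windows. The base composition ranged widely, with 58.0% G or C and 2 CpG in the *Spib* window, 57.3% and 17 CpG in that of *Etv6* and 73.0% and 43 CpG in the printed window of *Elf1*, against a median of 52.7% G or C over all windows. The second *Elf1* window has 44.7% G or C, 3 CpG and 0 cores in its first 250 bases. The ETS-IRF composite motif (GGAA, any 2 bases, GAAA), searched on both strands, was in none of the 10 windows found for 7 of the 10 genes, and it was in 2.72% of 32851 windows overall. The core of the interferon response element (GAAA, any 2 bases, GAAA) was in 3.44% of all windows. The only match among the 10 genes was TTTCAGTTTC in *Etv6*, which is the motif on the minus strand and begins at base 8 after the start. In the rest of the family a match was found in *Elk4*, with GAAAGTGAAA beginning 54 bases before 1 of its starts. The 2 motifs can overlap each other, and a match describes the letters only. *Spi1*, *Ets1* and *Fli1* were not searched.

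PU.1, Spi-B and Spi-C form the Spi subfamily. *Spi1* (ENSMUSG00000002111) lies on chromosome 2 (GRCm38, plus strand, 91082390 to 91115756). PU.1 is required for myeloid and early lymphoid development and binds IRF4 directly. *Spi1* gave 1275 and 1182 counts in the EV-RV libraries against 955 and 997 in the IRF4-RV libraries. Both IRF4-RV libraries were lower than both EV-RV libraries although they were sequenced more deeply. Scaled, the level was 37.9 ± 0.513 CPM under EV-RV against 27.8 ± 0.575 CPM under IRF4-RV (mean ± SD, n = 2 each). The log2 fold change was -0.45 (SE 0.0863, adjusted p = 0.00854 by edgeR), with a range of -0.49 to -0.42 when single libraries were dropped. Of all genes tested, 71.3% had a smaller change in size.

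*Spib* (ENSMUSG00000008193) lies on the minus strand of chromosome 7 from 44525993 to 44532071. Spi-B is largely confined to lymphoid and plasmacytoid dendritic cells and overlaps with PU.1 in its targets. The gene gave 5933 and 6078 counts in the EV-RV libraries against 7667 and 7528 in the IRF4-RV libraries. The scaled level was 185 ± 10.6 CPM under EV-RV against 217 ± 13.9 CPM under IRF4-RV (mean ± SD, n = 2 each). The gap between the lowest IRF4-RV library, at 207 CPM, and the highest EV-RV library, at 193 CPM, was narrower than the distance between the replicates of either group. The log2 fold change was 0.23 (SE 0.0821, adjusted p = 0.0915 by edgeR), just inside the cutoff. With DESeq2 the adjusted p was 0.0821. Without TMM factors, by library size only, the log2 fold change was 0.14 (adjusted p = 0.242), and with 1 library left out the adjusted p ranged from 0.0764 to 0.546. The call was lost without EV-RV replicate 1 (adjusted p = 0.311), without IRF4-RV replicate 1 (0.546) and without IRF4-RV replicate 2 (0.138).

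*Spic* (ENSMUSG00000004359, minus strand of chromosome 10, 88674772 to 88685015) codes for a factor best known from red pulp macrophages and heme handling. It had 0 counts in both EV-RV libraries and in IRF4-RV replicate 1, and 2 counts in IRF4-RV replicate 2, so its level was under the limit of 3 counts throughout. Of 6 genes linked to Spi-C and heme, 4 were tested. With edgeR 1 was higher and 0 were lower, against 16.0% and 13.7% over all genes tested. The count lower was also 0 at an unadjusted p under 0.05 and with DESeq2. The higher one was *Bach2*, a heme-sensitive repressor of the B lineage, with 1211 and 1067 counts against 2296 and 1896 and a log2 fold change of 0.77 (SE 0.13, adjusted p = 0.00467 by edgeR). The macrophage genes *Slc40a1* and *Cd163* had at most 2 counts in a library.

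Since PU.1 and Spi-B can occupy the same composite sites, their levels were also set side by side, per kb of merged exon. Spib transcripts outnumbered Spi1 transcripts in every library. The ratio of *Spib* to *Spi1* was 4.37 and 4.83 under EV-RV against 7.54 and 7.10 under IRF4-RV. Both IRF4-RV libraries were above both EV-RV libraries. The geometric mean was 1.59-fold higher with IRF4-RV, a difference of 0.67 on the log2 scale (SE 0.0842). An exact two-sided permutation test gave p = 0.333, the smallest that 2 libraries against 2 allow.

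**Figure D1:**
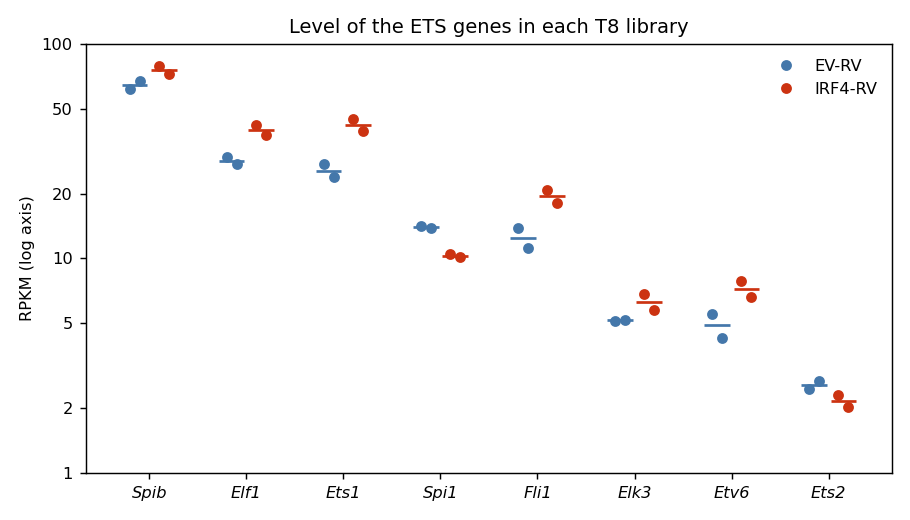
RPKM (CPM per kb of merged exon, log axis) of the 8 tested ETS genes. Points are libraries (replicate 1 left, replicate 2 right of a pair) and lines are means of 2 libraries, EV-RV in blue and IRF4-RV in red. *Spib* is highest in both groups, with means of 64.6 and 75.5 RPKM, while *Spi1* goes from 14.0 to 10.3 RPKM and *Ets1* from 25.7 to 41.9 RPKM.

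*Ets1* and *Fli1* are neighbors on chromosome 9, and both rose. *Ets1* (ENSMUSG00000032035, plus strand, 32636221 to 32757820) codes for a factor that holds back the differentiation of B cells into plasma cells. The gene gave 7799 and 6381 counts in the EV-RV libraries against 12791 and 12100 in the IRF4-RV libraries. The level was 218 ± 22.2 CPM under EV-RV against 355 ± 32.0 CPM under IRF4-RV (mean ± SD, n = 2 each). The lower IRF4-RV library, at 332 CPM, was well above the higher EV-RV library, at 234 CPM. The log2 fold change was 0.70 (SE 0.0986, adjusted p = 0.00199 by edgeR), larger than that of 84.6% of genes tested.

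*Fli1* (ENSMUSG00000016087, minus strand, 32422204 to 32542861) codes for a factor of blood and vascular development that also acts in B-cell development. The gene gave 1607 and 1227 counts in the EV-RV libraries against 2468 and 2291 in the IRF4-RV libraries. The level was 43.5 ± 6.54 CPM against 67.9 ± 7.03 CPM (mean ± SD, n = 2 each). In each group replicate 1 was above replicate 2, and the groups stayed apart. The log2 fold change was 0.64 (SE 0.123, adjusted p = 0.00832 by edgeR).

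The genes point away from each other, with 93.4 kb between their ends and 0 protein-coding genes in the gap. The ratio of *Ets1* to *Fli1*, per kb of exon, was 2.00 and 2.14 under EV-RV against 2.13 and 2.17 under IRF4-RV. The groups overlapped in this ratio, which differed by 0.06 on the log2 scale (SE 0.0506, exact two-sided permutation p = 0.667). With 2 libraries against 2 this test cannot give a p under 0.333, so it could not decide whether the ratio differed. No other protein-coding gene within 300 kb of the pair (*Arhgap32*, *Kcnj5* and *Kcnj1*) had more than 6 counts in a library. The ratio of *Ets1* to *Spi1* went from 1.94 and 1.72 with EV-RV to 4.26 and 3.86 with IRF4-RV.

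*Ets2* and *Erg* form the corresponding pair on chromosome 16, with 115.5 kb between them, and neither passed. *Ets2* (ENSMUSG00000022895, plus strand, 95702075 to 95721051), whose product is activated by MAP kinase signaling, gave 472 and 490 counts in the EV-RV libraries against 453 and 426 in the IRF4-RV libraries. The level was 14.8 ± 0.986 CPM against 12.5 ± 1.18 CPM (mean ± SD, n = 2 each), with a log2 fold change of -0.24 (SE 0.119, adjusted p = 0.193 by edgeR). *Erg* (ENSMUSG00000040732, minus strand, 95359169 to 95586593), known from stem cells and endothelium, had 2 and 0 counts in each group and was under the limit of 3 counts throughout. In the same region *Psmg1*, a proteasome assembly gene named after its values were seen, was lower by a log2 fold change of -0.46 (SE 0.108, adjusted p = 0.0197 by edgeR).

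*Etv6* (ENSMUSG00000030199) lies on the plus strand of chromosome 6 from 134035700 to 134270158. It codes for a repressor, and its human counterpart is fused to RUNX1 in a common childhood leukemia of the B lineage. The gene gave 1099 and 801 counts in the EV-RV libraries against 1583 and 1441 in the IRF4-RV libraries. The level was 29.2 ± 5.33 CPM against 43.2 ± 5.06 CPM (mean ± SD, n = 2 each). This was the widest relative spread between EV-RV replicates of the 8 genes, with replicate 1 at 1.30 times replicate 2. The log2 fold change was 0.56 (SE 0.141, adjusted p = 0.025 by edgeR) and ranged from 0.39 to 0.76 with 1 library left out. *Runx1*, the partner in that fusion, rose as well.

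*Elf1* (ENSMUSG00000036461, plus strand of chromosome 14, 79481194 to 79582494) codes for an activator with many targets in lymphoid cells. The gene gave 6678 and 5832 counts in the EV-RV libraries against 9582 and 9228 in the IRF4-RV libraries. The level was 193 ± 10.7 CPM against 268 ± 20.8 CPM (mean ± SD, n = 2 each), and the log2 fold change was 0.48 (SE 0.0847, adjusted p = 0.00582 by edgeR). *Elf1* overlaps *Wbp4* on the opposite strand over 4.85% of its exon length. *Wbp4* had at most 1031 counts in a library.

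*Elk3* (ENSMUSG00000008398, minus strand of chromosome 10, 93247414 to 93311135) codes for a ternary complex factor, which binds DNA together with SRF. The gene gave 777 and 745 counts in the EV-RV libraries against 1054 and 950 in the IRF4-RV libraries. The level was 23.5 ± 0.241 CPM against 28.6 ± 3.55 CPM (mean ± SD, n = 2 each). The log2 fold change was 0.29 (SE 0.11, adjusted p = 0.108 by edgeR), just outside the cutoff. It passed in 3 of 11 alternative settings, among them without IRF4-RV replicate 2 (log2 fold change 0.41, adjusted p = 0.0356). *Elk3* overlaps *Cdk17* on the opposite strand over 6.95% of its exon length, and strand use in counting is not given in the sources used here.

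**Figure D2:**
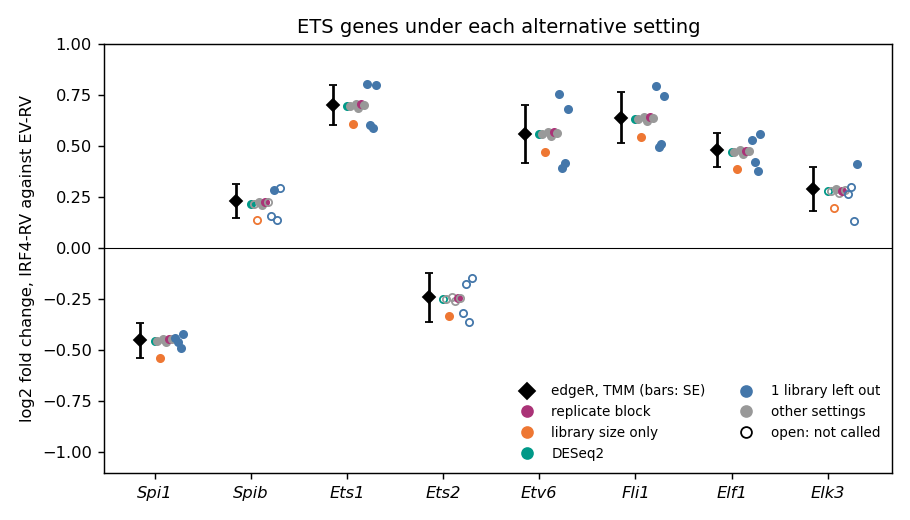
Log2 fold change of the 8 tested ETS genes with IRF4-RV against EV-RV. Black diamonds are the edgeR values with their standard errors, and circles are 11 alternative settings, open where the gene did not pass. *Ets1*, *Fli1*, *Etv6* and *Elf1* stay above 0 and *Spi1* below it with filled circles throughout, while *Spib*, *Ets2* and *Elk3* have both open and filled circles.

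Replicate 1 was above replicate 2 of the IRF4-RV group in CPM for all 8 genes, by 1.03 times for *Spi1* to 1.19 times for *Elk3*, and in the EV-RV group for 5 of the 8. Over all genes tested, replicate 1 was the higher one in 50.4% with IRF4-RV and in 48.7% with EV-RV. *Ets1*, *Fli1*, *Etv6* and *Elf1* are also long genes, spanning from 101.3 kb (*Elf1*) to 234.5 kb (*Etv6*). Among the 2488 tested genes that span 60 kb or more, 497 were higher and 301 lower, with a median log2 fold change of 0.076. Of 8218 under 20 kb, 1090 were higher and 1107 lower, with a median of -0.019. The part of gene length and of replicate 1 in the result was not tested.

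The rest of the family was given by 17 genes, of which *Etv3l* was not analysed here. Of the other 16, 9 were tested, 3 were higher and 1 was lower, against 16.0% higher and 13.7% lower over all genes tested. *Elk4* and *Elk1*, the other ternary complex factors, both rose. *Elk4* went from 954 and 887 counts to 1475 and 1554, a log2 fold change of 0.60 (SE 0.0851, adjusted p = 0.00203 by edgeR). *Elk1* went from 361 and 322 counts to 510 and 548, a log2 fold change of 0.52 (SE 0.107, adjusted p = 0.0115 by edgeR). Their partner *Srf* fell, with 2827 and 2438 counts against 2141 and 2109 and a log2 fold change of -0.42 (SE 0.0886, adjusted p = 0.0123 by edgeR). *Etv3*, which codes for a repressor, rose from 1115 and 1085 counts to 1652 and 1472, with a log2 fold change of 0.39 (SE 0.109, adjusted p = 0.0364 by edgeR). This call was lost without EV-RV replicate 1 (adjusted p = 0.125) and without IRF4-RV replicate 1 (0.305).

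*Elf2*, a close relative of *Elf1*, had the opposite direction, with 1522 and 1438 counts against 1379 and 1305 and a log2 fold change of -0.25 (SE 0.0946, adjusted p = 0.0986 by edgeR). It passed in 5 of 11 alternative settings and was lost without EV-RV replicate 1 (adjusted p = 0.193), EV-RV replicate 2 (0.199) or IRF4-RV replicate 2 (0.545). *Elf4*, the third of that group, had 5157 and 4849 counts against 5398 and 5206 and a log2 fold change of -0.03 (SE 0.0807, adjusted p = 0.843 by edgeR). *Etv4* and *Etv5*, of the PEA3 group, had log2 fold changes of 0.10 (SE 0.118) and 0.00 (SE 0.0768), with edgeR adjusted p of 0.581 and 0.974. *Gabpa*, which acts with the GABPB subunits, was at -0.15 (SE 0.0817, adjusted p = 0.252 by edgeR), and the repressor gene *Erf* was at -0.18 (SE 0.0932, adjusted p = 0.221 by edgeR). The remaining genes were too low to be tested. *Etv1* had 2 to 5 counts and *Elf5* 4 to 10 counts in a library, *Spdef* had at most 2, *Fev* and *Ehf* had at most 1, and *Etv2* and *Elf3* had 0. Over the 26 family genes in the table, 17 were tested, 8 were higher and 2 were lower, against 16.0% and 13.7% over all genes tested. The median log2 fold change of the 17 was 0.23, against 0.007 over all genes tested.

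**Figure D3:**
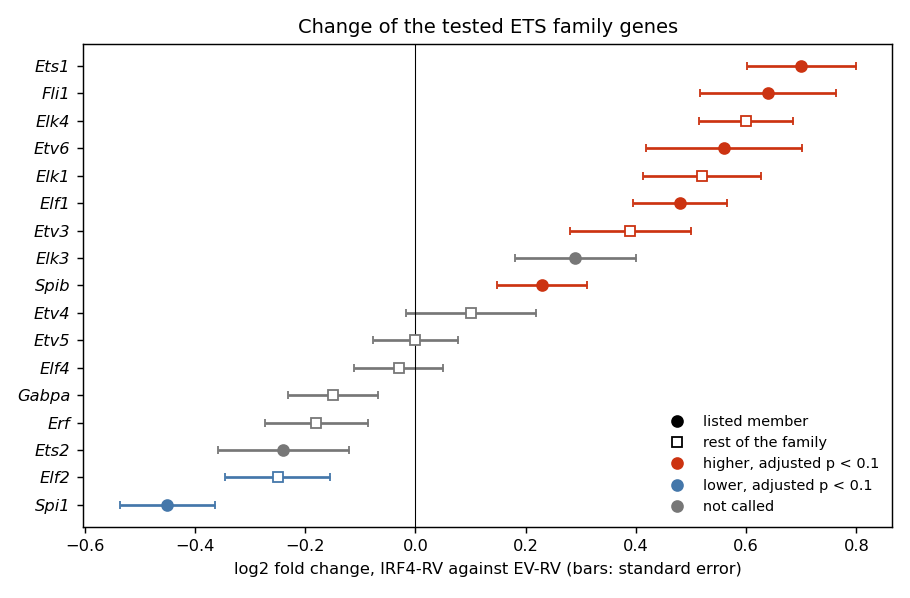
Log2 fold change with IRF4-RV against EV-RV of the 17 tested ETS family genes, with standard errors as bars. Filled circles are the listed genes and open squares the rest of the family, red where higher, blue where lower and gray where the test was not passed. *Ets1* is at the top with 0.70 and *Spi1* at the bottom with -0.45.

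Per kb of exon, the make-up of the family within each library was described without a test. *Spib* took the largest share in every library, with 25.3% and 28.2% of the summed ETS level with EV-RV and 26.3% in both IRF4-RV libraries. *Ets1* held 11.3% and 10.0% against 14.8% and 14.3%, and its mean went from the third to the second place. *Elf1* held 12.1% and 11.5% under EV-RV against 14.0% and 13.7% under IRF4-RV, so that *Elf1* and *Ets1* lay close together in both groups. *Fli1* held 5.64% and 4.69% against 6.96% and 6.59%. *Spi1* went from 5.79% and 5.84% to 3.48% and 3.71%, from the seventh to the eighth place. The shares of *Elk3*, *Etv6* and *Ets2* were between 0.74% and 2.6% in every library. The 10 genes together held 65.5% and 65.4% under EV-RV against 71.2% and 70.0% under IRF4-RV, while the Spi subfamily held 31.1% and 34.1% against 29.7% and 30.1%. These shares and the ratios above depend on the length used for each gene, which was taken from GENCODE M21 and may not be the one the reads were counted over. By the longest transcript in place of merged exons, *Ets1* held a mean of 14.5% and 19.4% and *Spib* 22.5% and 21.6%.

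**Figure D4:**
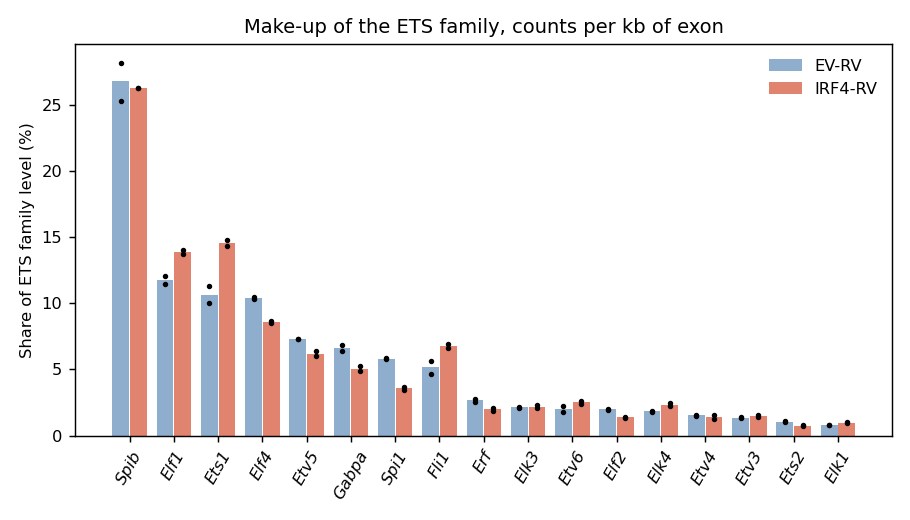
Share of each of the 17 tested genes in the summed level of the ETS family, in percent of counts per kb of merged exon. Bars are means of 2 libraries and black points the libraries, EV-RV in blue and IRF4-RV in red. *Spib* leads with means of 26.8% and 26.3%, *Ets1* goes from 10.6% to 14.6%, and *Spi1* from 5.82% to 3.60%.

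Factors known to bind DNA beside ETS proteins were followed as a list of 20 genes, which held *Irf4* itself. Of these, 18 were tested, 6 were higher and 3 were lower, against 16.0% higher and 13.7% lower over all genes tested. *Irf4*, put in by the vector, is 1 of the 6. The median log2 fold change of the 18 was -0.09. Besides *Irf4*, with a log2 fold change of 3.46 (SE 0.0907, adjusted p = 1.14e-06 by edgeR), the largest rises among called genes were those of *Jun* and *Runx1*. *Runx1*, which codes for a core-binding factor that cooperates with Ets1 and PU.1, went from 2811 and 2579 counts to 5744 and 5317, a log2 fold change of 0.93 (SE 0.0917, adjusted p = 0.000367 by edgeR). *Jun*, an AP-1 subunit, had 35 and 33 counts under EV-RV against 54 and 165 under IRF4-RV, with a log2 fold change of 1.55 (SE 0.472, adjusted p = 0.0512 by edgeR). IRF4-RV replicate 2 stood far above the other, and without it the log2 fold change was 0.61 (adjusted p = 0.399). The call was also lost without either EV-RV replicate (adjusted p = 0.139 and 0.136). Among called genes, the largest falls were those of *Lyl1*, *Srf* and *Irf8*. *Pax5*, which codes for a factor of B-cell identity, had a log2 fold change of -0.39 (SE 0.156, adjusted p = 0.116 by edgeR) and passed in 6 of 11 alternative settings. *Lyl1*, a basic helix-loop-helix factor of progenitors, went from 5548 and 5340 counts to 3868 and 4400, a log2 fold change of -0.51 (SE 0.0739, adjusted p = 0.00225 by edgeR).

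*Irf8* codes for the other IRF that binds DNA with PU.1 or Spi-B. The gene gave 7833 and 7139 counts in the EV-RV libraries against 6312 and 6694 in the IRF4-RV libraries, and its log2 fold change was -0.32 (SE 0.0702, adjusted p = 0.0152 by edgeR, and 0.134 without IRF4-RV replicate 2). *Irf8* and *Spi1* thus both fell while *Irf4* rose. Per kb of exon, *Irf8* was at 32.7 ± 0.836 RPKM (SD, n = 2) with EV-RV and 26.2 ± 0.251 RPKM (SD, n = 2) with IRF4-RV, and *Irf4*, vector included, was at 49.2 ± 0.119 and 542 ± 47.7 RPKM (SD, n = 2 each).

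Genes with known composite ETS-IRF elements formed a list of 8, of which 5 were tested. *Cybb* and *Iglc3* passed the filter on low counts only through the IRF4-RV libraries, in which they are high, so that their calls are given as a description and no count over the list is read. The 3 called genes with the largest rise were *Cybb*, *Iglc3* and *Igkc*. *Cybb*, the catalytic subunit of the phagocyte oxidase, had 10 and 8 counts against 1173 and 1119, a log2 fold change of 6.86 (SE 0.179, adjusted p = 1.14e-06 by edgeR). *Igkc*, the kappa constant region, had 5915 and 5875 counts against 15521 and 17137, a log2 fold change of 1.35 (SE 0.0724, adjusted p = 1.95e-05 by edgeR). The lambda constant region *Iglc3* had 1 and 2 counts against 14 and 13 (edgeR adjusted p = 0.0233), and its value is uncertain, since reads could be split with the near-identical *Iglc2*. The call of *Iglc3* was lost without either EV-RV replicate (adjusted p = 0.203 and 0.132) and without IRF4-RV replicate 1 (0.118). *Ms4a1* and *Ciita*, with 24 to 45 counts in a library, did not pass.

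B-lineage genes known as targets of PU.1, Spi-B or Ets1 formed a list of 17, of which 15 were tested. In this list 6 were higher and 2 were lower, against 16.0% higher and 13.7% lower over all genes tested. The list was chosen with earlier results of these data known, and the study reported changes of *Blnk* and *Igll1* in T8 cells. The counts over the list are therefore given as a description only. The median log2 fold change of the 15 was 0.24. Among called genes, the largest rises were those of the kinase gene *Blk* (log2 fold change 1.86), the adaptor gene *Blnk* (1.04) and *Ikzf3* (0.82), which codes for Aiolos. *Ikzf3* gave 1647 and 1265 counts in the EV-RV libraries against 2888 and 2651 in the IRF4-RV libraries (SE 0.123, adjusted p = 0.00273 by edgeR). *Igll1*, which codes for a surrogate light chain protein, was lower by a log2 fold change of -1.30 (SE 0.091, adjusted p = 5.95e-05 by edgeR). *Il7r*, a known target of PU.1, was lower by -0.29 (SE 0.096, adjusted p = 0.0686 by edgeR), from 1488 and 1381 counts to 1306 and 1231. This call was lost without EV-RV replicate 1 (adjusted p = 0.165), EV-RV replicate 2 (0.136) or IRF4-RV replicate 2 (0.446). The other 7, among them *Btk*, *Syk*, *Cd79a* and *Cd79b*, did not pass.

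**Figure D5:**
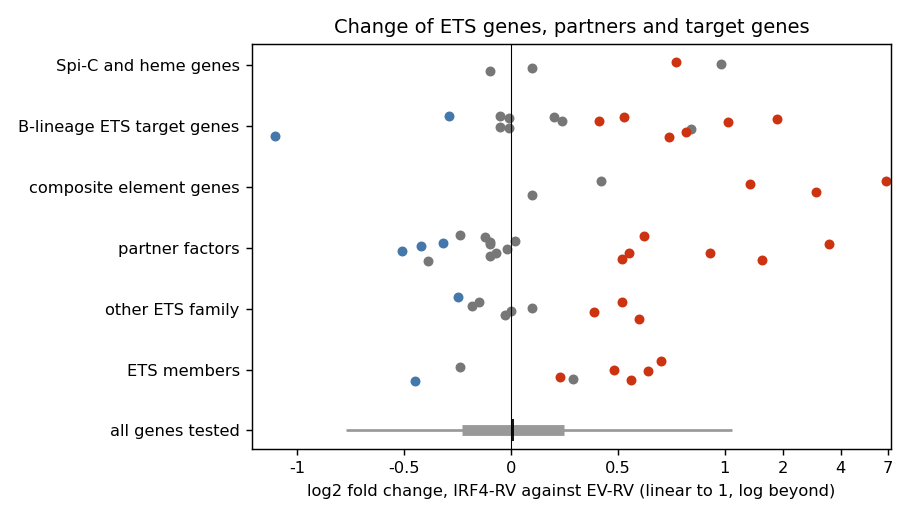
Log2 fold change with IRF4-RV against EV-RV (linear to 1 and logarithmic beyond) of each tested gene in the ETS lists, the partner factors and the target lists, red where higher, blue where lower and gray where the test was not passed. The gray bar marks all genes tested, from the 5th to the 95th percentile (-0.77 to 1.09), with the middle part from -0.23 to 0.25 drawn thick. All ETS genes lie between -0.45 and 0.70.

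Since *Spi1*, *Spib*, *Fli1* and *Erg* are also expressed in other blood and vascular cells, markers of those cells were counted. Of 16 myeloid markers 5 were tested (*Csf2ra*, *Csf3r*, *Cd68*, *Fcgr3* and *Ly6g*), with summed counts of the list of 588 and 491 under EV-RV against 542 and 549 under IRF4-RV. Among them *Ly6g* had 1 and 0 counts against 71 and 58, and *Fcgr3* had 220 and 191 against 79 and 84. Of the other 11, *Adgre1*, *Ctsg*, *S100a8* and *S100a9* were at 0 in every library, *Cd14* had 0 and 5 counts against 4 and 9, and *Csf1r*, *Itgam*, *Lyz2*, *Mpo*, *Elane* and *Prtn3* had at most 5 in a library. These 11 summed to 6 and 13 counts against 9 and 18. Of 5 plasmacytoid dendritic markers 2 were tested (*Cox6a2* and *Pacsin1*), with sums of 29 to 37 against 32 to 45, and *Siglech* was at 0. Of 7 endothelial markers 1 was tested, *Pecam1*, which leukocytes also express and which had 941 and 765 counts against 4974 and 4506, while *Cdh5*, *Tek*, *Kdr*, *Tie1*, *Emcn* and *Plvap* together had at most 14 counts in a library. Of 8 T and NK markers 1 was tested (*Klrb1c*), with sums of 39 to 51 against 40 to 58. Of 7 erythroid and megakaryocyte markers 2 were tested (*Klf1* and *Hbb-bt*), with sums of 285 to 292 against 333 to 397. Of 4 stem and progenitor markers 1 was tested (*Flt3*), with sums of 15 to 27 against 113 to 117. All 4 plasma cell markers were tested (*Sdc1*, *Jchain*, *Prdm1* and *Xbp1*), with sums of 4681 and 5156 against 7922 and 9582, most of them from *Xbp1*. *Xbp1* was higher by a log2 fold change of 0.82 (adjusted p = 0.000945 by edgeR), while *Sdc1* was lower by -0.81 (adjusted p = 0.00813), with 521 and 587 counts against 287 and 401. *Prdm1* had 8 and 9 counts against 46 and 35, and *Jchain* had 8 and 19 against 12 and 11. *Prdm1* and *Ly6g* passed the filter on low counts only through the IRF4-RV libraries, so their values are given as a description. The part of these marker differences in the ETS values was not tested.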

How the data were processed

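Bulk RNAseq libraries of T8 cells (2 with EV-RV and 2 with IRF4-RV) were analyzed. The labels gave each library's group and number. Reads were aligned to GRCm38 with STAR (2.4.0j) and the authors deposited raw counts per gene from featureCounts, which are whole numbers without normalization. The submitters' processing notes also name DESeq2 1.22.1 and FastQC 0.11.2. Of 55359 identifiers, 52083 were matched to GENCODE M21 for symbols and coordinates, and the other 3276 held 0.203% to 0.486% of the counts of a library. Which annotation the reads were counted over is not certain, so exon lengths from GENCODE M21, on which RPKM, shares and ratios rest, may differ from it. Settings for strand and for multiple alignments, and whether cells were sorted for GFP, are not given in the sources used here.

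Genes passing filterByExpr were tested with edgeR 4.0.16 in R 4.3.3 (TMM factors, quasi-likelihood F test, no replicate block, FDR 0.1). The procedure was tested on simulated data first, in which the share of false calls was above the FDR used. CPM used TMM-scaled library sizes, and RPKM divided CPM by merged exon length in kb. Promoter windows (250 bases before to 50 after a start) came from RefSeq.

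Named are the 10 ETS genes, *Irf4*, the other ETS genes, from each further list the called genes that rose most (up to 3) and fell most (up to 3), and tested markers. Other genes were named to complete a count or a locus. The members and lists were chosen with earlier results of these data known, and 2 genes of the lists are not reported here. Alternatives were DESeq2 1.42.0, edgeR with library sizes alone or with the size factors of DESeq2, 2 further filters on low counts, a replicate block, an FDR of 0.05, dropping single libraries, and another gene length for shares.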

Additional observations from a re-analysis of the deposited data

How the results depend on the processing

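The log2 fold changes of *Spi1*, *Ets1*, *Etv6*, *Fli1* and *Elf1* kept their direction and their side of the cutoff in all 11 alternatives. *Spib* lost its call with DESeq2 size factors in edgeR (0.219), with library size only (0.136), at an FDR of 0.05 (0.225), and without EV-RV replicate 1 or either IRF4-RV replicate (range with 1 library left out 0.138 to 0.293). *Ets2* was called with library size only (-0.333) and with the replicate block (-0.245), and *Elk3* with every gene of at least 1 count (0.289), with the block (0.282) and without IRF4-RV replicate 2 (range with 1 library left out 0.133 to 0.412). *Etv5*, near 0, turned negative with DESeq2 (-0.001), DESeq2 size factors (-0.001), library size only (-0.087), and at least 1 CPM in 2 libraries (-0.011), and ranged from -0.039 to 0.032 with 1 library left out, as *Elf4* did from -0.129 to 0.053. The cause of these changes was not tested.

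At an FDR of 0.05, 3347 of the 14637 genes tested passed, 1834 higher and 1513 lower. With every gene of at least 1 count 4605 passed, 2571 higher and 2034 lower. Of the list counts, the other ETS family genes called lower (1) were 0 with DESeq2, with every gene of at least 1 count and at an FDR of 0.05, and 3 with library size only. ETS members called lower (1) were 2 with library size only. Partner factors called lower (3) were 5 with library size only and with every gene of at least 1 count, Spi-C and heme genes called higher (1) were 2 with the latter, and B-lineage targets called lower (2) were 1 at an FDR of 0.05. With 1 library left out these ranged from 0 to 1, 1 to 1, 3 to 5, 1 to 2 and 1 to 2, and 3573 to 3646 genes were called in all.

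Same-numbered libraries deviated from their group means with a correlation of 0.284 across 14637 genes, which are not independent, and with 2 pairs that share only a number in the labels this does not establish pairing. With the replicate block 6394 genes were called (43.7%, 23.4% higher and 20.3% lower) in place of 4349, with 2 ETS members lower, 2 of the other family genes lower, 6 partner factors lower and 2 Spi-C and heme genes higher. With library size only, 11.9% of genes were higher and 19.6% lower, and the median over all genes moved from 0.007 to -0.083.

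By the longest transcript, with EV-RV and IRF4-RV, mean shares became 6.28% and 3.8% for *Spi1*, 22.5% and 21.6% for *Spib*, 14.5% and 19.4% for *Ets1*, 1.29% and 0.895% for *Ets2*, 4.42% and 5.68% for *Fli1*, 15.3% and 17.6% for *Elf1*, and 1.88% and 1.88% for *Elk3*. That of *Etv6* became 2.1% with IRF4-RV. With 2 libraries per group, differences the size of that of *Spib* or *Elk3* lay close to the cutoff in either direction.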
